A study of Mus musculus with 9 samples.

Results

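The receptors described here are 8 lectin-like receptors of natural killer (NK) cells that activated CD8 T cells can also carry: the NKG2 proteins encoded by Klrc1, Klrc3 and Klrk1, their relative CD94 encoded by Klrd1, and the Ly49 receptors encoded by Klra3, Klra4, Klra8 and Klra9. They were chosen by name, with earlier results of these data known, from the genes whose RefSeq accessions stand in the probe set identifiers. Further receptors of these families on the array, Ly49 genes among them, are described below. All 8 were found, as 10 of the 1246 probe sets of the array, among 909 genes that could be named. The RNA came from CD8 T cells of female B10D2 mice, which in all groups carried a transgenic T cell receptor. Naive cells, the control, had not been stimulated. Deletion cells had met their cognate antigen in the animal as a weak signal, and anergy cells as a strong signal. Each group held 3 arrays. The study asked how cells that will be deleted differ from cells that become unresponsive. The receptor transgene, the age of the mice, the time after antigen and the purity of the cells are not given in the sources used here. Nor is it stated whether each replicate came from its own animal. The p-values therefore reflect the spread among these arrays alone, and that spread may be technical.

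NKG2A, NKG2C and NKG2E reach the cell surface as pairs with CD94, and these pairs bind the nonclassical class I molecule Qa-1. NKG2A carries inhibitory motifs and restrains killing, whereas NKG2C and NKG2E signal through an activating adaptor. NKG2D is a separate activating receptor for stress-induced ligands of the Rae-1 and H60 families, and on CD8 T cells it acts as a costimulator. The Ly49 receptors bind classical class I molecules or viral decoys: Ly49C and Ly49I inhibit, and Ly49D and Ly49H activate. All 8 genes lie on chromosome 6, where Klrd1, Klrk1, Klrc3 and Klrc1 stand in that order with only 1 further protein-coding gene among them in the RefSeq annotation, and the Ly49 genes follow after 6 others.

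The RefSeq table (GRCm38.p6, a C57BL/6J genome) held promoters of 7 of the 8 genes, all but Klrd1. Each is 300 bases long, from 250 before to 50 after an annotated start. Those of Klrc1, Klrc3 and Klrk1 are shown because the probe sets of these 3 genes were called higher in anergy than in naive cells. The probe set of Klrc3 may also read its close relatives, as given below. Capitals mark matches, on either strand, to 3 of the 6 short motifs searched: TGTGGT (bound by RUNX factors), TGANTCA (AP-1) and GGAAA (NFAT).
Klrc1 promoter, chr6:129678924-129679223, minus strand: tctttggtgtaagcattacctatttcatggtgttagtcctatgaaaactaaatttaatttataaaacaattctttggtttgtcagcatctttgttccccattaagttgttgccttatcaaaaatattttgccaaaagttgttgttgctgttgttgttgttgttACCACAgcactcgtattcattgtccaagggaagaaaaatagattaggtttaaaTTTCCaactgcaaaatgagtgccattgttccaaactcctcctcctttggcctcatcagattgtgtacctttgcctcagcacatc
Klrc3 promoter, chr6:129643239-129643538, minus strand: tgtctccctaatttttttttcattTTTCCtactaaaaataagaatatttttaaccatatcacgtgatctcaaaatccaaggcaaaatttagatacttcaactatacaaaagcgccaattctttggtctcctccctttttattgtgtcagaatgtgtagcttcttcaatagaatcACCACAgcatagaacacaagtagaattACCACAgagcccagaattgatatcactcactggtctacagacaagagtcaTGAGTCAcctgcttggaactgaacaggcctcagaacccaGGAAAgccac
Klrk1 promoter, chr6:129623815-129624114, minus strand: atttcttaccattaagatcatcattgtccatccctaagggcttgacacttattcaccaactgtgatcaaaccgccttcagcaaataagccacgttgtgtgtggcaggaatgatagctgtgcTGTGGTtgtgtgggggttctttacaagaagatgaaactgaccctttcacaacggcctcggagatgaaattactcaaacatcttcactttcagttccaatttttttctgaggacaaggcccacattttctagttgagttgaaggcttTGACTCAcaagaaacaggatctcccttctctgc
RUNX letters occurred in all 3, at base -87 of Klrc1, at -76 and -49 of Klrc3 and at -129 of Klrk1, counted from the annotated start, and in none of the 4 Ly49 promoters. Of 32851 promoters of this length, 16.8% held them. AP-1 letters stood at base 2 of Klrc3 and 18 of Klrk1 (7.81% of all promoters), and NFAT letters in 6 of the 7 genes (61.3% of all). GGTGTGA (T-box factors, 3.98% of all), TTCNNNGAA (STAT, 8.30%) and ATCAAAG (TCF, 3.73%) had no match in any of the 7. No marked match overlapped a different motif. The motifs were picked with the expression values known, and a match is a run of letters and not a shown binding site. The Klrc1 and Klrc3 promoters had 47.1% identical positions in a global alignment, with a single annotated start used per gene. Pairs of an NKG2 and a Ly49 promoter had 43.9% to 48.5%, so Klrc1 and Klrc3 were no more alike than those. Klra3 and Klra9 had 85.0%, the highest of the pairs aligned, and the other Ly49 pairs had 39.2% to 57.7%. Klra8 had a further annotated start whose promoter was not aligned. There GGAAA stood at base -17, near its place in Klra4 (-16), but in the Klra8 promoter that was aligned it stood at -80. The percentages of Klra8 therefore depend on the start used, and low ones do not show that these promoters are unlike.

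Klrc1, the inhibitory receptor NKG2A, rose under both antigen signals and more under the strong one. Values here are log2 expression after RMA, the array summary used by the authors. Its level was 3.76, 4.02 and 3.43 in the naive arrays (in the order of the replicate numbers, as throughout), 6.68, 6.42 and 7.14 in deletion, and 8.69, 8.60 and 8.55 in anergy. The 3 groups did not overlap, and every anergy array lay above every deletion array. Such a lack of overlap was seen for 31.5% of all probe sets between deletion and naive, 33.9% between anergy and naive and 16.6% between deletion and anergy. From naive to deletion the rise was 8.06-fold (log2 3.01, 95% limits 2.60 to 3.42; n = 3 arrays per group; limma adjusted p = 1.19e-06). To anergy it was 29.4-fold (log2 4.88, 4.47 to 5.29; adjusted p = 3.33e-08), the second largest of the 909 named genes. The direct comparison of deletion with anergy gave a level 3.65-fold lower in deletion (log2 -1.87, -2.28 to -1.46; adjusted p = 0.000368), and this was the largest deficit among the named genes. All 3 calls held in each of the 16 alternative analyses run. The spread differed between groups, with an SD of 0.30 in naive, 0.36 in deletion and 0.07 in anergy. In RNA from bulk samples, more cells with the transcript and more RNA per cell cannot be told apart.

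Klrd1, the CD94 chain with which NKG2A pairs, went the other way and fell in both stimulated groups. Its log2 level was 11.33, 11.51 and 11.35 in naive cells, 10.38, 10.16 and 10.52 in deletion cells, and 10.53, 10.53 and 10.38 in anergy cells. Every naive array was above every stimulated array, and the stimulated groups overlapped. The fall was 2.06-fold in deletion (log2 -1.04 ± 0.10, SE; limma adjusted p = 3.01e-05) and 1.89-fold in anergy (log2 -0.92 ± 0.10; adjusted p = 5.95e-05). Deletion and anergy differed by -0.13 on the log2 scale, with 95% limits of -0.34 to 0.09 (adjusted p = 0.578), and did not pass. Both falls passed in all 16 alternatives. Klrc1 and its partner chain thus changed in opposite directions against naive, and of this pair Klrc1 differed by the test between the weak and the strong signal.

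Klrk1, the activating receptor NKG2D, was highest in anergy cells. Its log2 values were 2.78, 2.90 and 2.94 in naive, 3.43, 2.81 and 3.25 in deletion, and 3.74, 3.64 and 3.60 in anergy. The deletion arrays spread from within the naive range upwards, and the anergy arrays lay above all others. Against naive the anergy level was 1.73-fold higher (log2 0.79 ± 0.14, SE; limma adjusted p = 0.00140). Deletion differed from naive by 0.29 ± 0.14 (adjusted p = 0.205), which became 0.47 (adjusted p = 0.00563) without deletion replicate 2, the array at 2.81. Deletion was 0.50 ± 0.14 below anergy and did not pass (adjusted p = 0.0858, unadjusted p = 0.00456). Without deletion replicate 1 this difference was -0.63 (adjusted p = 0.0368).

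Klrc3, the activating CD94 partner NKG2E, was raised in anergy cells and was level between naive and deletion cells within the error. Its log2 values were 2.60, 2.82 and 2.85 in naive, 2.87, 2.65 and 2.96 in deletion, and 3.36, 3.31 and 3.48 in anergy. Naive and deletion arrays overlapped, and all anergy arrays were above both. The anergy level was 1.54-fold that of naive (log2 0.63 ± 0.10, SE; limma adjusted p = 0.000815), deletion minus naive was 0.07 (95% limits -0.15 to 0.29; adjusted p = 0.786), and deletion was 1.47-fold lower than anergy (log2 -0.56 ± 0.10; adjusted p = 0.0143). The last call was lost at the margin without deletion replicate 2 (adjusted p = 0.0513) and without anergy replicate 3 (0.0502). The identifier of the Klrc3 probe set ends in s, which in Affymetrix naming means that its probes match transcripts of more than 1 gene. Signal from Klrc3 and from its close relatives Klrc1 and Klrc2 can therefore not be told apart there, and Klrc2 had no named probe set. Klrk1 and Klrc3 lay near the dim end of the array, where 25.0% and 19.5% of probe sets had a lower mean.

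**Figure D1:**
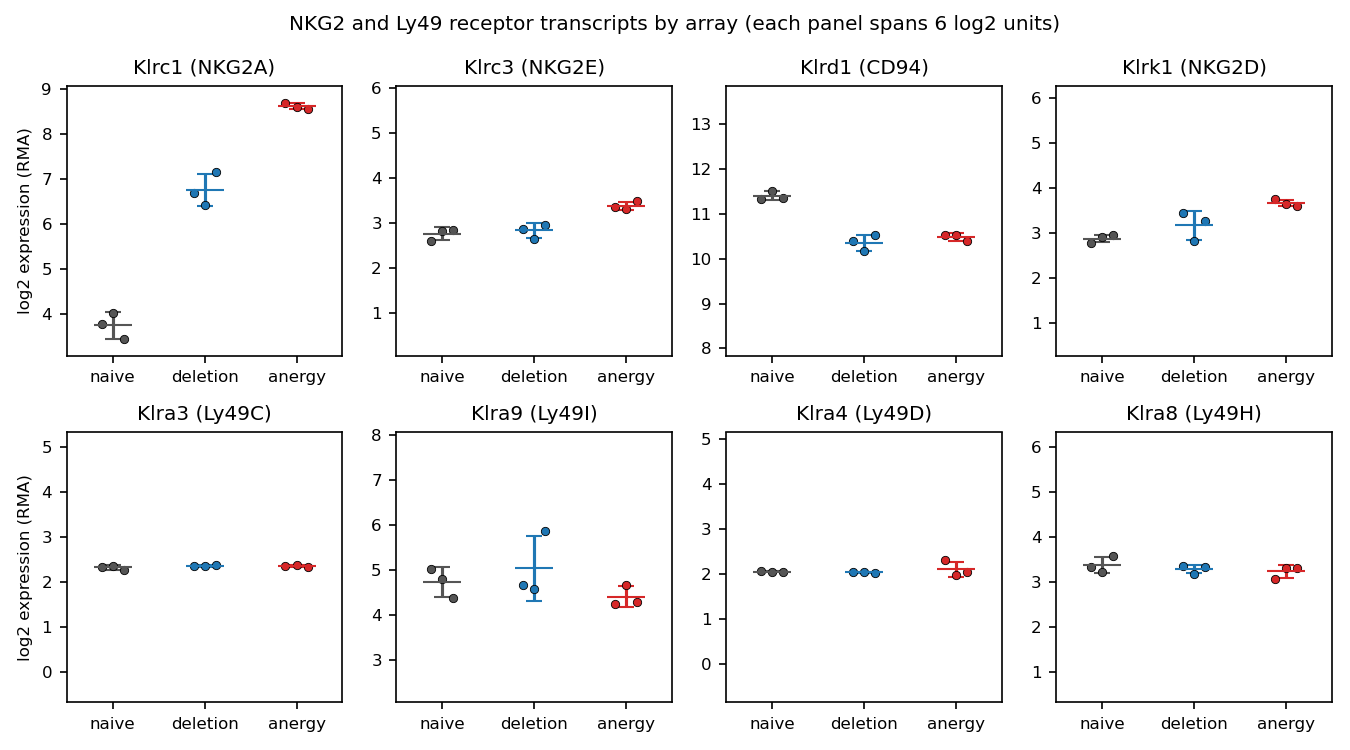
Log2 expression (RMA) of the 8 receptor genes in each array, by group, with the group mean and SD (n = 3 arrays per group); every panel spans the same number of log2 units, centred on its gene, and genes with several probe sets are shown by the one with the highest mean. Klrc1 climbs from naive through deletion to anergy, Klrd1 is highest in naive, Klrc3 and Klrk1 are highest in anergy, and the Ly49 genes stay flat apart from 1 high deletion array of Klra9.

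None of the 4 Ly49 genes chosen here was called in any of the 3 comparisons by limma, and 0 reached an unadjusted p under 0.05. Of the 909 named genes, 273 reached it in deletion against naive, 335 in anergy against naive and 149 in deletion against anergy. The shares called higher and lower were 9.79% and 11.6%, 12.5% and 17.2%, and 2.53% and 1.43% in the same order. With only 4 genes, a count of 0 says little beside these shares. Other Ly49 genes were measured too, and Klra6 among them was called in anergy against naive, as given below. Klra3 (Ly49C, inhibitory) ran from 2.27 to 2.37 in naive, 2.36 to 2.39 in deletion and 2.34 to 2.38 in anergy. Klra4 (Ly49D, activating) ran from 2.03 to 2.06, 2.02 to 2.03 and 1.98 to 2.30 in the same order. Klra8 (Ly49H, the activating receptor for a cytomegalovirus protein) ran from 3.23 to 3.58, 3.19 to 3.35 and 3.07 to 3.32. On these probe sets the groups overlapped for each of the 3 genes. The identifiers of the Klra4 and Klra8 probe sets given here end in x, an Affymetrix mark for probes that may also match other transcripts. Their signal may therefore come in part from other genes. The additional probe sets of Klra3 (1.89 to 2.41) and Klra4 (1.69 to 1.97) were not called either. On that of Klra3 the anergy arrays (2.22, 2.27 and 2.19) all lay above the naive arrays (2.08, 2.17 and 1.89), by 0.18 on average (limma adjusted p = 0.237). In that comparison 33.9% of all probe sets had groups that did not overlap. The lowest value on any array was 1.67, so Klra3 and Klra4 read close to the bottom of the scale, and no detection call was used here to say whether they were expressed at all. For Klra3, deletion minus anergy was 0.01 (95% limits -0.11 to 0.13), and for Klra4 it was -0.08 (-0.26 to 0.11). So near the bottom of the scale, narrow limits do not show that expression was unchanged, since a gene without signal would give them too.

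Klra9 (Ly49I, inhibitory) varied more between arrays than the other Ly49 genes, with SDs of 0.34, 0.72 and 0.24 in naive, deletion and anergy. Its log2 values were 5.03, 4.81 and 4.37 in naive, 4.67, 4.59 and 5.87 in deletion, and 4.25, 4.68 and 4.30 in anergy. Deletion replicate 3 alone stood above all other arrays, and the groups overlapped. Deletion minus naive was 0.31 (95% limits -0.39 to 1.00) and became -0.11 without deletion replicate 3. Deletion minus anergy was 0.63 (-0.06 to 1.33; limma adjusted p = 0.371). This probe set also carries the suffix s, so its signal may come from more than 1 Ly49 gene.

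Counted by gene, 1 of the 8 receptors was higher in deletion than in naive and 1 was lower (12.5% each), beside 8.51% and 10.5% of all probe sets called higher and lower in that comparison, or 9.79% and 11.6% of the 909 named genes. These shares are near the background. In anergy against naive 3 of 8 were higher (37.5%, beside 10.8% of probe sets and 12.5% of named genes) and 1 was lower (12.5%, beside 16.1% and 17.2%). In deletion against anergy 2 of 8 were lower (25.0%, beside 1.28% of probe sets and 1.43% of named genes) and 0 were higher (beside 2.09% and 2.53%). The 8 were picked with earlier results known, so the contrast with the background is a description. The median difference over the 8 genes was 0.05, 0.04 and -0.10 in the 3 comparisons, beside -0.02, 0.01 and -0.01 over all named genes. All the calls came from the 4 NKG2 and CD94 genes. The whole array gave 26 calls towards deletion and 16 towards anergy. Quantile normalization turned this into 32 against 38, and median centring into 13 against 13.

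**Figure D2:**
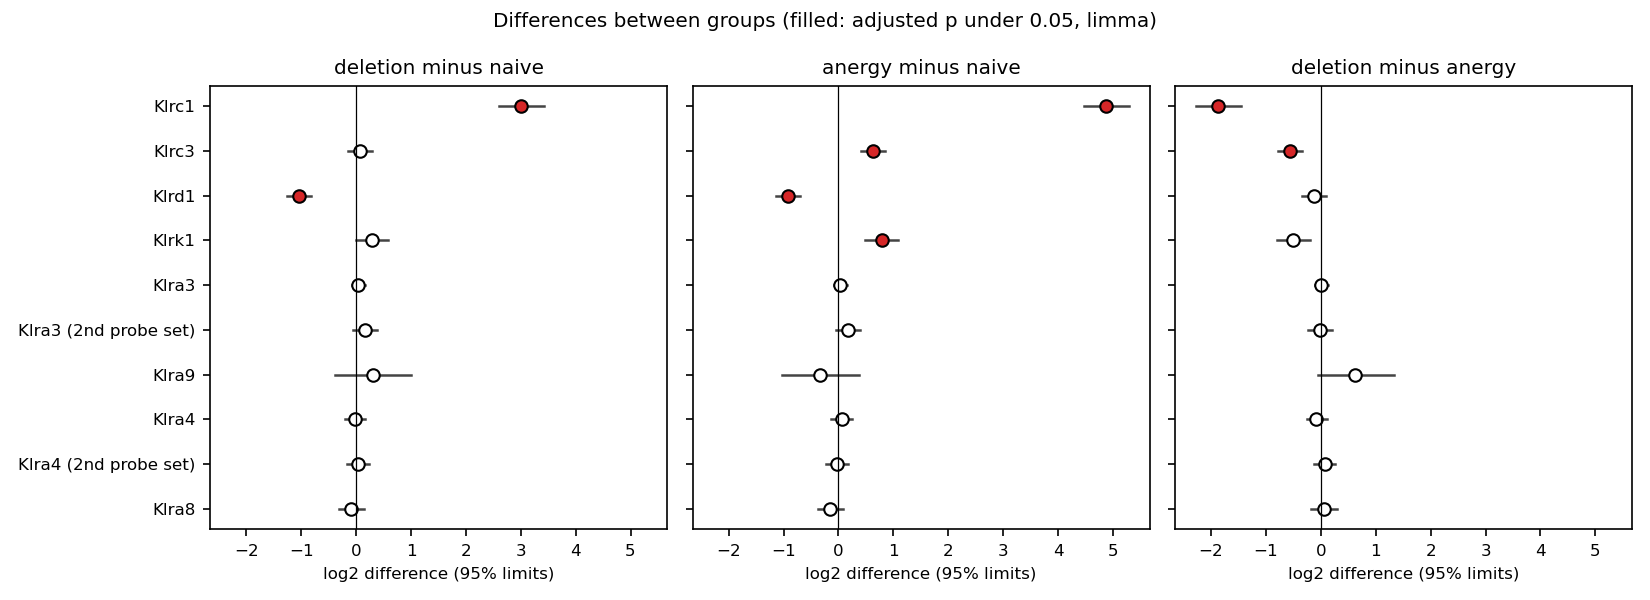
Log2 differences between groups with 95% limits for the 10 probe sets of the 8 receptor genes (3 arrays per group; filled points have a limma adjusted p under 0.05). Against naive, Klrc1 lies at 3.01 and 4.88 and Klrd1 at -1.04 and -0.92, and the Ly49 probe sets include 0 in all panels.

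**Figure D3:**
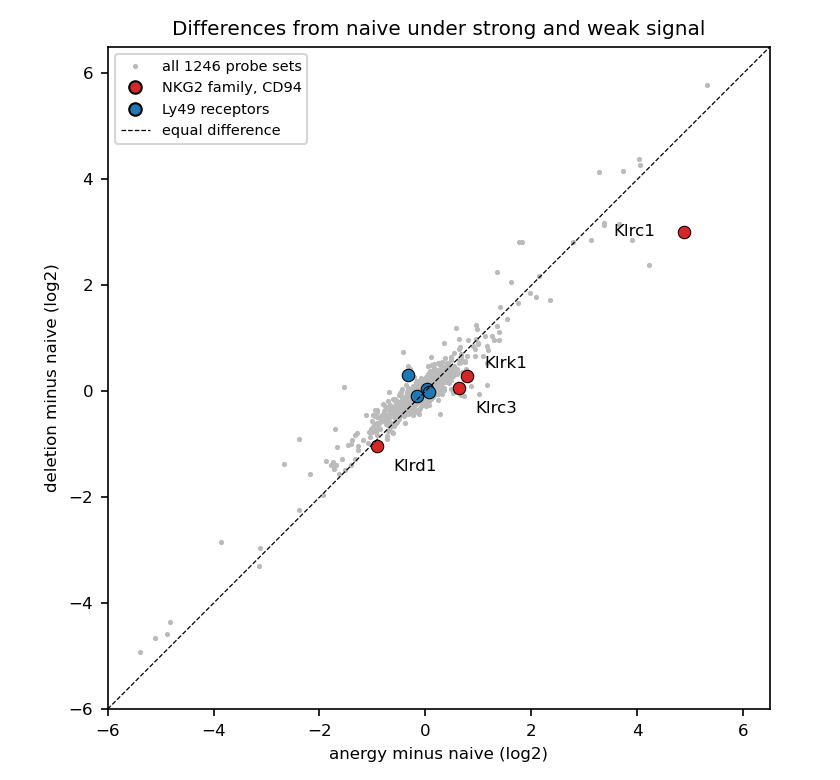
Deletion minus naive (vertical) against anergy minus naive (horizontal), both in log2 units, for all probe sets in grey and the 8 receptor genes in colour; both axes share the naive arrays, so the general trend along the diagonal is partly built in. Klrc1 lies below the line of equal difference at 4.88 and 3.01, and Klrd1 lies near it.

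In anergy against naive, 1 of the 8 other receptors of this family measured was called higher (12.5%, beside 12.5% of named genes). None was called lower (beside 17.2%). Of 32 further NK-type lectin receptors listed, 8 were measured, and Klra6, itself a Ly49 gene, alone was called. Its log2 values of 3.07, 2.98 and 3.01 in naive rose to 3.43, 3.17 and 3.33 in anergy (0.29 ± 0.07, SE; limma adjusted p = 0.0128). Without naive replicate 2 this call was lost at the margin (0.27, adjusted p = 0.0513). The identifier of the Klra6 probe set also ends in x. Klrg1, a receptor of terminally differentiated effector cells, had means of 4.17, 4.05 and 4.23 in naive, deletion and anergy and was not called. The others of the 8 were dimmer, with 4.17% to 28.1% of probe sets lower in mean, against 43.5% for Klrg1. In deletion against naive 0 of the 8 were called, beside 9.79% and 11.6% of named genes called higher and lower. In deletion against anergy 0 were called, beside 2.53% and 1.43%. Each of these comparisons had 1 of the 8 at an unadjusted p under 0.05 by limma. In deletion against naive this count of 0 became 1 without anergy replicate 1 or 3 and in 3 other settings, and in deletion against anergy it became 1 without anergy replicate 1. Of 17 C-type lectins of the same gene complex 6 were measured, and 1 was called, lower in anergy than in naive (16.7%, beside 17.2% of named genes). Clec2d, a ligand of the NKR-P1 receptors, was lower in anergy than in naive (-0.91 ± 0.26, adjusted p = 0.0267), but this did not hold under quantile normalization (adjusted p = 0.0548), with only the 2 groups fitted (0.0645) and without anergy replicate 2 (0.0632) or 3 (0.104). Cd69, an early activation marker, was not called, at 8.76, 8.33 and 7.94. No probe set was named for any of the 13 listed ligands or the 11 signalling partners, which were not analysed here.

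Cytokines that act on activated CD8 T cells, interleukins 2, 10, 12, 15 and 21 and TGF-beta, have been reported to alter the expression of NKG2 receptors, and 18 of 19 listed cytokine and receptor genes were measured. In deletion against naive 3 rose and 6 fell (16.7% and 33.3%, beside 9.79% and 11.6% of named genes). In anergy against naive 5 rose and 6 fell (27.8% and 33.3%, beside 12.5% and 17.2%). Il2rb, the beta chain shared by the receptors for interleukins 2 and 15, rose in both. Its log2 values of 7.97, 8.05 and 7.82 in naive became 9.85, 9.73 and 9.61 in deletion and 10.14, 10.05 and 9.91 in anergy. The stimulated groups did not overlap with naive. Il2rb rose by 1.78 ± 0.09 and 2.09 ± 0.09 (SE; limma adjusted p = 3.11e-07 and 8.63e-08). The common gamma chain Il2rg fell by 0.49 and 0.60, and the interleukin-21 receptor Il21r by 0.73 and 0.99.

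All 3 TGF-beta receptor genes fell in both stimulated groups. The coreceptor Tgfbr3 went from 8.55, 8.48 and 8.45 in naive to 5.01, 5.16 and 5.43 in deletion and 5.19, 5.38 and 5.50 in anergy. That is a change of -3.29 ± 0.11 and -3.14 ± 0.11 (SE; limma adjusted p = 1.63e-08 and 2.59e-08). The signalling chains Tgfbr1 (-0.92 and -1.17) and Tgfbr2 (-1.02 and -1.47) changed less. Tgfb1 itself was not called, with means of 8.47, 8.65 and 8.66.

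Against the strong signal, 3 of the 18 were lower in deletion (16.7%, beside 1.43% of named genes). None was called higher (beside 2.53%), and 4 had an unadjusted p under 0.05 by limma and a higher level in deletion. Il2ra, the inducible alpha chain of the interleukin-2 receptor, stood at 3.59, 3.49 and 3.50 in naive, 3.79, 3.39 and 3.74 in deletion and 4.65, 4.84 and 4.57 in anergy. Like Klrc3, it overlapped between naive and deletion and was higher in every anergy array. Its difference of deletion from anergy was -1.05 ± 0.11 (limma adjusted p = 0.000525). Il21 (-0.56 ± 0.08) and Il12rb2 (-0.69 ± 0.07) were the others. Il21 read 2.01 to 2.79 over all arrays, with 6.18% of probe sets lower in mean. That is close to the bottom of the scale, and no detection call was used to say whether it was expressed. Il12rb2, a chain of the interleukin-12 receptor, fell in deletion (-0.42, adjusted p = 0.00243) and rose in anergy (0.27, adjusted p = 0.0234), at log2 values of 3.08 to 3.98. The rise in anergy was lost without naive replicate 1 (adjusted p = 0.0679) and without naive replicate 2 (0.0749). With replicate number as a block, Tgfbr2 was called higher in deletion than in anergy (0.46, adjusted p = 0.0322) and Il2rb lower (-0.30, adjusted p = 0.0344). The smaller calls of the list, Il2 (0.51) and Il10ra (0.39) in deletion and Il10 (0.35) and Il10rb (-0.35) in anergy, were each lost in several alternatives. The 3 rises in deletion became 1 without naive replicate 2 or 3 or deletion replicate 2 or 3, and the 5 rises in anergy became 3 without naive replicate 1 or 2.

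**Figure D4:**
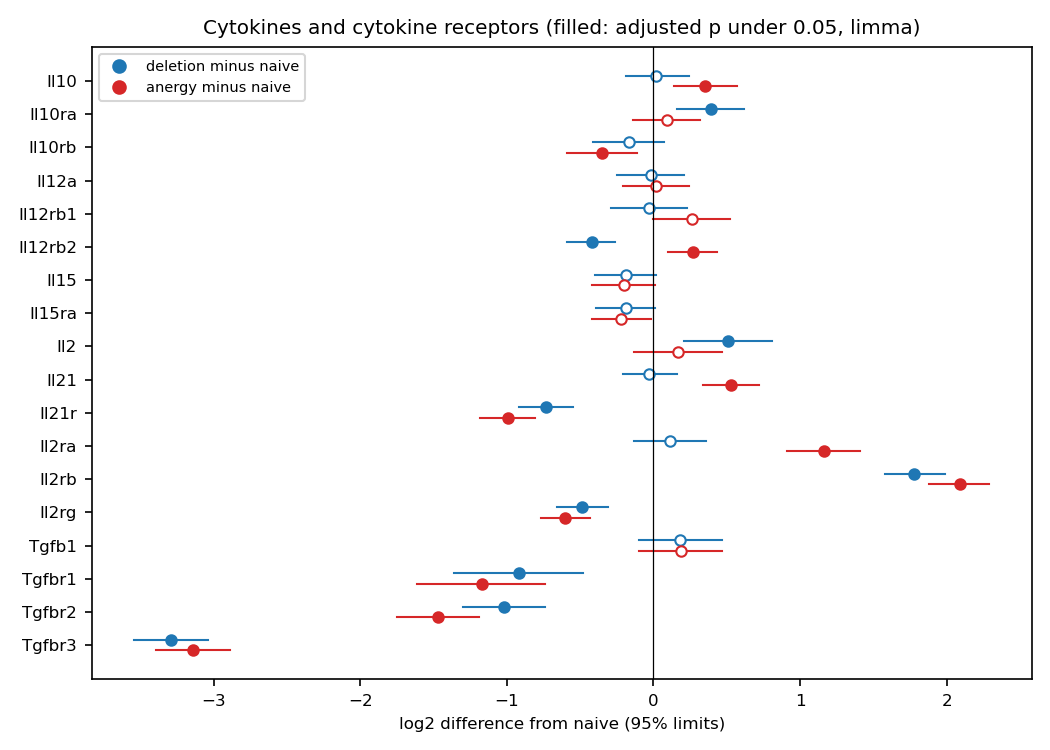
Log2 differences from naive with 95% limits for the 18 measured cytokine and cytokine receptor genes in deletion and anergy cells (3 arrays per group; filled points have a limma adjusted p under 0.05; both comparisons share the naive arrays). Il2rb lies to the right in both, and the TGF-beta receptor genes lie to the left in both. Il2ra and Il21, the latter near the bottom of the scale, lie away from 0 in anergy.

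The named genes closest to Klrc1 in their pair of differences from naive (deletion, anergy) were Il1rl1, Lgals3 and Cks2. Closeness is the straight-line distance between the log2 pairs, over 3 groups of 3 arrays. Il1rl1, the interleukin-33 receptor, lay at a distance of 0.91, with differences of 2.38 and 4.22, and it too was lower in deletion than in anergy (-1.85, limma adjusted p = 0.000252). A further probe set of that gene gave 0.10 and 0.21 and does not share the pattern. Lgals3, which encodes galectin-3 (3.15 and 3.65), and the cell cycle gene Cks2 (3.18 and 3.38) lay farther away, Lgals3 at 1.24 and Cks2 beyond it, and were not called between deletion and anergy (adjusted p = 0.178 and 0.734). Closest to Klrd1 were Piga, which acts in GPI anchor synthesis (-0.98 and -1.09, distance 0.18), the TGF-beta family receptor gene Acvrl1 (-0.82 and -0.92, distance 0.22) and the lysosomal glucosidase gene Gaa (-0.90 and -0.72, distance 0.25).

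The array held few genes that mark cell types. Of 9 T cell markers only Cd2 was measured, and it fell from a range of 11.53 to 11.68 in naive to 9.82 to 10.38 in deletion and 9.33 to 9.48 in anergy. Cd8a and Cd8b1 were not analysed here, so the CD8 label rests on the submitters. Of 12 NK cell markers 1 was measured, Klra7 (Ly49G), at 3.20 to 3.36, 3.32 to 3.44 and 3.35 to 3.64 and not called. Ncr1 and Klrb1c, which define NK cells, were not analysed here, and the part of NK cells in the rise of Klrc1 was not tested. Of 9 activated CD8 T cell markers measured, 5 rose in deletion, and 7 rose and 1 fell in anergy (Ccl5, -0.73, limma adjusted p = 0.05 after rounding). Of 4 naive T cell markers 3 fell in deletion and 4 in anergy. Of 4 B cell markers 2 rose and 1 fell in deletion and 1 rose and 1 fell in anergy, and of 8 macrophage and dendritic cell markers 0 were called in deletion and 1 rose in anergy. Beside these counts, 9.79% of named genes were called higher and 11.6% lower in deletion, and 12.5% and 17.2% in anergy, each against naive. Across probe sets, arrays within a group had correlations of 0.995 to 0.998. Anergy replicate 3 had the widest residual SD, 0.166 against 0.0943 to 0.128 on the other arrays. Its Klrc1 (8.55), Klrk1 (3.60) and Klrd1 (10.38) values were the lowest of the 3 anergy arrays, and without it the calls of these genes held. Its Klrc3 value (3.48) was the highest of the 3. Without it the Klrc3 call between deletion and anergy was lost (limma adjusted p = 0.0502).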

How the data were processed

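RNA of 9 samples was hybridised to GLYCOv4, a custom Affymetrix array read in 1 colour. The deposited values are log2 expression, 1 per probe set and array; the authors used RMA, per the submitters' processing notes, with no version given in the sources used here. Extraction was with Trizol, per the labels' protocols. The log2 scale was read from the method and from the range of values, 1.67 to 13.86. Array medians ran from 4.44 to 4.58. There were no counts and hence no depth; the number of arrays limits the precision, with a median SE of 0.087 for deletion minus anergy. RefSeq accessions without versions named 963 of 1246 probe sets (77.3%) through a table of assembly GRCm38.p6; the others were left unnamed.

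Values were used as deposited, without a filter. Limma 3.58.1 in R 4.3.3 (lmFit, eBayes) was fitted to all 9 arrays with 6 residual degrees of freedom, two-sided, with Benjamini-Hochberg adjustment over the 1246 probe sets of each of 3 comparisons and a threshold of 0.05. For deletion against anergy, the fit was tested on simulated data with independent noise on each array. Those data lacked the shared deviation of same-numbered arrays given below. A gene with several probe sets is shown by its brightest probe set on average. Same-numbered deletion and anergy arrays deviated together from their group means (r = 0.195, 0.270 and 0.280), a pairing seen in the data and not stated in the labels. With naive arrays of the same number the sign was mixed, for anergy (r = -0.154, 0.274 and 0.175) and for deletion (r = -0.136, 0.118 and -0.142). The blocked value is given where it changes a call. Promoters were aligned with Biopython 1.88. Alternatives were 2 scalings, a filter on dim probe sets, a fit to 2 groups, array weights, a replicate block, a trended prior variance and leaving out each array.

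All 8 receptor genes were named whatever their result, as was any gene of the related lists that passed; likeness took the 3 nearest named genes of each receptor gene that was called with a log2 change of at least 1 against naive. The receptors and lists were chosen with earlier results of these data known.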

Additional observations from a re-analysis of the deposited data

Results flagged for a closer look

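The change from naive differed between the weak and the strong signal for Klrc1, by -1.87 on the log2 scale (deletion minus anergy), and for Klrc3, by -0.56, each by limma's direct test of deletion against anergy. The signal of the Klrc3 probe set cannot be told apart from that of Klrc1 and Klrc2, so its difference may not be one of Klrc3 itself. The values per array are given above. Both comparisons with naive share the naive arrays, and the direct test does not use them for its difference.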

How the results depend on the processing

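Each comparison was repeated under 16 alternatives. Among the single probe sets of the 8 receptor genes, 123 of 125 values of called differences kept their call; the other 2, both of Klrc3 between deletion and anergy, are given above, and none changed sign. Of 340 values of differences that were not called, 2 passed (both of Klrk1, given above) and 20 changed sign, in Ly49 probe sets or in Klrc3 between naive and deletion. Leaving out 1 array moved deletion minus naive between -0.03 and 0.09 or -0.03 and -0.01 (the Klra4 probe sets), -0.17 and 0.01 (Klra8), -0.11 and 0.53 (Klra9) and -0.01 and 0.16 (Klrc3). It moved anergy minus naive between 0.00 and 0.05 (Klra3) and between -0.09 and 0.03 or -0.04 and 0.12 (Klra4), and deletion minus anergy between -0.11 and 0.04 or 0.00 and 0.02 (Klra3), -0.14 and 0.02 (Klra4) and -0.03 and 0.11 (Klra8). Klra3 turned to -0.02 (anergy minus naive) and 0.02 (deletion minus anergy) after median centring, and Klra4 to 0.03 (anergy minus naive) with array weights. With the other probe set, Klra4 read 0.04, -0.03 and 0.07 in the 3 comparisons and Klra3 read -0.01 between deletion and anergy.

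With the dimmest 33.4% of probe sets left out, which leaves Klrc3 and Klrk1 out, 1 receptor gene was higher in anergy than in naive and 1 lower in deletion than in anergy. Leaving out 1 array gave 1 to 2 receptor genes higher in deletion than in naive and 1 to 3 lower in deletion than in anergy. Over all probe sets the calls between deletion and anergy were 42 as reported, 70 after quantile normalization, 26 after median centring, 21 with only 2 groups fitted, 75 with array weights and 20 to 44 without 1 array, the lowest without deletion replicate 2 and 27 without deletion replicate 3. The cause was not tested. The replicate block gave 55 calls there, 258 in deletion against naive and 346 in anergy against naive, and it changed no call of a receptor gene (Klrc1 deletion minus anergy -1.87, adjusted p = 0.00189, limma). Among the cytokine genes, those lower in deletion than in anergy became 5 and those higher 1 after quantile normalization.

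The lack of detection calls limits what can be said of Klra3 and Klra4, which read near the lowest values, and probe sets shared between relatives limit Klrc3 and Klra9.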
